A study of Mus musculus with 16 samples.

Results

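Transcripts of mouse muscle stem cells in 2 activated states were compared: 2 libraries titled p53WT_G2 against 3 titled p53WT_3dai, 5 of the 16 RNA-seq libraries of the series. They were chosen by their titles. Genes were compared where at least 2 of the 5 libraries reached 1 FPKM (fragment counts scaled by transcript length and by the mapped total), which left 11679 of 24341. All 5 libraries came from C57BL/6 mice aged 2 to 3 months with genotype p53 WT, and no other allele or agent is given in the labels. Hind limb muscles gave the G2 cells, whereas the tibialis anterior, a single muscle of the lower leg, gave the 3dai cells, so state and muscle cannot be told apart. Cells were released with collagenase and dispase. The sort kept cells with surface CD34 and alpha-7 integrin and discarded those with CD31, CD45, CD11b or Sca-1. What 3dai and G2 stand for is not written out in the labels, and the words chronic (G2) and acute (3dai) activation, in which the comparison is posed, are not theirs. The series title names a severe Duchenne model, while the labels give no Dmd genotype. Whether replicates came from separate animals is not recorded, so p-values measure only the spread between these samples, which may be technical.

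Muscle stem cells, also called satellite cells, lie at rest along the muscle fibre, marked by the transcription factor Pax7 and held there in part by Notch signalling. Once activated they enter the cell cycle as myoblasts that express Myod1. Some return to rest, and others switch on Myog, leave the cycle, fuse and make contractile proteins.

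The summed FPKM of the 3dai libraries was 543208, 529605 and 616485 and that of the G2 libraries 482451 and 505838. How many fragments lie behind these values is unknown. The G2 libraries had more genes at 1 FPKM or above, 11463 and 11574 against 10341 to 10647. On log2(FPKM + 1) the correlation across genes, which are not independent replicates, was 0.937 to 0.956 within 3dai, 0.947 within G2 and 0.835 to 0.849 between them. The spread in the test was estimated on all 16 libraries, of which p53KO_3dai replicate 1 stood apart from its group: it correlated at 0.924 and 0.930 with the other p53KO_3dai libraries, which correlated with each other at 0.966, and at 0.936 to 0.957 with the p53WT_3dai libraries. The genes of the sort were checked. Itga7, which codes the alpha-7 integrin, had 201, 183 and 205 FPKM in 3dai and 229 and 317 in G2, and Cd34 had 53.4, 61.6 and 42.7 FPKM in 3dai and 27.1 and 27.5 in G2. Neither passed the test (adjusted p = 0.14 and 0.0593; Cd34 had 0.0144 in a fit of only the 5 libraries), though all G2 libraries lay above all 3dai libraries for Itga7 and below them for Cd34. Ptprc, which codes CD45, was listed at 0 in all 5, and Pecam1, which codes CD31, at 0, 0 and 0 in 3dai and at 1.72 and 0.185 in G2. Ly6a, which codes Sca-1, had 5.88, 3.64 and 1.42 FPKM in 3dai and 3.58 and 2.08 in G2.

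Of the 11679 genes, 2745 (23.5%) differed between G2 and 3dai at an adjusted p under 0.05 by limma's moderated test with Benjamini-Hochberg adjustment. The higher calls in G2 were 1832 (15.7%) and the lower calls 913 (7.82%). A difference of 2-fold or more was seen in 1610 of the higher (13.8% of genes tested) and 541 of the lower (4.63%). Differences are G2 minus 3dai in log2(FPKM + 1), a scale on which a low gene's change appears smaller than it is, and stand with their standard error (SE) after the library values. Their median over all genes was 0.06. Under quantile normalization, which moved that median to -0.12, the split was 1466 higher and 1273 lower, or 53.5% higher against 66.7%. Genes under a mean of 5 FPKM gave 690 of the higher calls and 54 of the lower. Of the genes tested, 584 reached 1 FPKM in both G2 libraries and in no 3dai library, so they passed the filter through G2 alone, and 471 of these were among the higher calls. The reverse held for 183 genes, of which 30 were called lower. The calls rest on 2 G2 libraries: without replicate 1 or replicate 2 of G2, 684 and 623 genes were called higher and 244 and 254 lower. Without 3dai replicate 1 the lower calls were 603. Without p53KO_3dai replicate 1, 1978 were higher and 983 lower, and 2724 of the 2745 calls were kept. A fit of only the 5 libraries called 1897 higher and 1376 lower. Where a gene said not to pass did so in that fit, its adjusted p there is given too. Genes named from a list for their size had to be called and free of overlap between the groups. Statements that the groups of such genes did not overlap restate that choice. Here and throughout, in bulk samples, fewer cells of a type and less RNA per cell cannot be told apart.

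**Figure D1:**
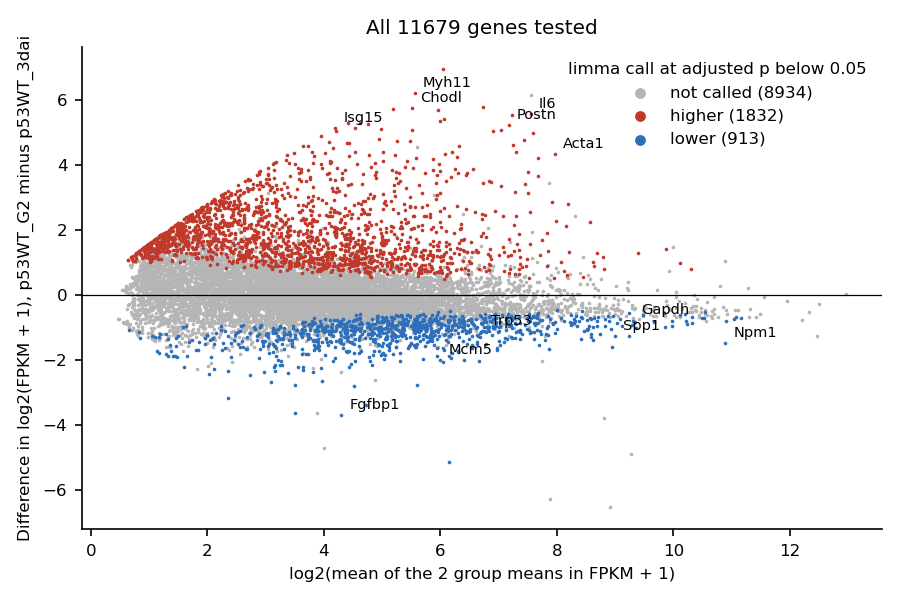
Difference between p53WT_G2 and p53WT_3dai (y axis, log2(FPKM + 1)) against the mean level (x axis, log2 scale) for each of the 11679 genes tested, with the calls of limma coloured. The 1832 higher calls reach further from 0 than the 913 lower calls, and 690 of the higher calls have a mean under 5 FPKM.

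The cell division programme was lower in G2. All 42 DNA replication genes and all 50 mitosis genes tested had both G2 libraries below all 3 of 3dai, a pattern that held for 25.9% of all genes in that direction. Of the replication genes 33 fell and none rose, with a median difference of -1.37. Of the mitosis genes 34 fell and none rose, with a median of -1.13. When G2 replicate 1 or 2 was left out, 15 and 14 of 42 and 11 and 12 of 50 passed, while the medians stayed between -1.36 and -1.07. Leaving out 3dai replicate 1, 2 or 3 gave 28, 25 and 24 of 42 and 22, 24 and 32 of 50.

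The helicase that opens replication origins was among the falls. Mcm5, a subunit of that helicase, had 100.5, 108 and 95.3 FPKM in 3dai and 25.2 and 23.5 in G2, a fall of 2.01 on the log2 scale (SE 0.28, adjusted p = 0.00014). Gins1, which joins the same helicase, had 37.7, 26.6 and 40.5 FPKM in 3dai and 5.80 and 8.44 in G2 (log2 difference -2.14, SE 0.69, adjusted p = 0.0362), and Cdc6, which loads it, had 12.7, 16.8 and 15.4 FPKM in 3dai and 5.04 and 6.41 in G2 (-1.25, SE 0.38, adjusted p = 0.0284). For these 3 genes every G2 library lay far below the lowest 3dai library. Mcm2 also fell (adjusted p = 0.0421), but the calls of Mcm2, Cdc6 and Gins1 were lost in 5, 4 and 4 of the 5 fits that left out a library. Of the 16 licensing and helicase genes 14 fell.

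Pcna, the sliding clamp of the polymerases, had 355, 264 and 349.7 FPKM in 3dai and 118 and 126 in G2 (log2 difference -1.38, SE 0.24, adjusted p = 0.000977), and 11 of 17 genes in its group fell. Tk1, which makes thymidine monophosphate, had 84.7, 73.9 and 85.2 FPKM in 3dai and 16.2 and 24.6 in G2 (-1.97, SE 0.31, adjusted p = 0.000443). Rrm2, the small subunit of ribonucleotide reductase, had 370.0, 366 and 327 FPKM in 3dai and 119 and 105 in G2 (-1.65, SE 0.30, adjusted p = 0.00134). Dut, which removes dUTP, had 81.1, 102 and 153 FPKM in 3dai and 32.2 and 24.9 in G2 (-1.90, adjusted p = 0.00673, lost without G2 replicate 2). In each of these both G2 values lay well under the 3dai range.

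Among mitotic regulators, Ccnb1, the cyclin that drives entry into mitosis, had 67.0, 66.7 and 60.0 FPKM in 3dai and 21.0 and 21.4 in G2 (log2 difference -1.56, SE 0.29, adjusted p = 0.00144). Its kinase Cdk1 had 81.9, 83.7 and 83.2 FPKM in 3dai and 30.9 and 30.4 in G2 (-1.41, SE 0.35, adjusted p = 0.00894, lost without either G2 library). Aurka, a kinase of the spindle poles, had 52.2, 50.6 and 50.0 FPKM in 3dai and 13.9 and 18.5 in G2 (-1.60, SE 0.31, adjusted p = 0.0018). Within each state these values lay close together, and the groups were far apart. Ccna2 fell by 1.50 and Incenp, a subunit of the chromosomal passenger complex, by 1.62. Birc5, of the same complex, had 178, 128 and 174 FPKM in 3dai and 55.3 and 25.6 in G2 and fell by 2.04 (adjusted p = 0.0169), a call lost without G2 replicate 2. Mki67, the proliferation antigen, had 74.0, 75.3 and 55.4 FPKM in 3dai and 39.7 and 28.4 in G2 (adjusted p = 0.0441) and Top2a 172, 176 and 125 FPKM in 3dai and 87.0 and 73.3 in G2 (adjusted p = 0.0322). Both calls were lost in 4 of 5 such fits. Of the transcription factors for these genes, Mybl2 fell by 1.60, while Foxm1 had 32.1, 37.0 and 20.9 FPKM in 3dai and 18.6 and 12.7 in G2 and did not pass (adjusted p = 0.0642).

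The G2 cells were not without cell cycle transcripts. In the 3 p53WT libraries with no suffix, Ccnb1 was listed at 0 in all and Mki67 had 0.493, 2.10 and 0.369 FPKM. Mean log2(FPKM + 1) over the mitosis list was 0.56, 0.96 and 0.63 there, 4.55 and 4.57 in G2, and 5.64 to 5.73 in 3dai. Over the replication list it was 1.87 to 2.18, 4.31 and 4.32, and 5.63 to 5.71. On this log scale G2 thus lay between the other groups on both lists, nearer to 3dai. Summed FPKM over the replication list was 1096 and 1113 in G2, 2926 to 3111 in 3dai and 289 to 363.5 with no suffix. Over the mitosis list it was 1403 and 1405 in G2, 3077 to 3145 in 3dai and 42.6 to 87.4 with no suffix. By these sums G2 lay nearer to the libraries with no suffix.

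The promoters of these genes share letters. Many mitotic genes carry a CCAAT box, the site of NF-Y, and a CHR element (TTTGAA), the site of the DREAM and MuvB complexes. The 250 bases before the start were searched on both strands in RefSeq's GRCm38.p6 promoter table, which held 40 of the 50 mitosis genes with 42 starts. CCAAT was present in 73.8% of these starts and TTTGAA in 33.3%, against 33.8% and 16.0% of all 32851 starts in the table. For the replication genes (34 of 42 matched, 39 starts) the shares were 61.5% and 10.3%. A match is a description of the letters and not a bound site. Here and in the promoter counts below, matched genes of a list were searched whether called or not. Such shares describe the lists and not the difference between G2 and 3dai. Cdk1 (chr10:69352913-69353162, minus strand) and Aurka (chr2:172370571-172370820, minus strand) are shown because they belong to the falls above. The stretches run 5′ to 3′ up to the base before the start, with the motifs in capitals. Cdk1 holds 3 CCAAT matches, each as ATTGG on this strand, and 2 TTTGAA matches, none of them overlapping. Aurka holds 2 CCAAT matches.
Cdk1: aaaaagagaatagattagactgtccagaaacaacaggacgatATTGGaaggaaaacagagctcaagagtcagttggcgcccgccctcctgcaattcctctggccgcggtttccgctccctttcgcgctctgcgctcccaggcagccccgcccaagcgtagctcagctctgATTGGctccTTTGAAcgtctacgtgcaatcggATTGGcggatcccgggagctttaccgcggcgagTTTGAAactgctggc
Aurka: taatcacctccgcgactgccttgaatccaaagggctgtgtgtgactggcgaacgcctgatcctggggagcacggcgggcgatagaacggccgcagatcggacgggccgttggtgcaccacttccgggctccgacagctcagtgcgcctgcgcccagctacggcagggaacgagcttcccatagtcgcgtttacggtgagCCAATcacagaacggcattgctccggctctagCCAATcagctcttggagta

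Of the 10 D and E cyclins and their kinases 4 fell (Ccne1, Ccne2, Cdk2 and Cdk4) and 1 rose. Ccne2, a cyclin of the G1/S step, had 64.5, 57.8 and 64.2 FPKM in 3dai and 10.9 and 18.5 in G2 (log2 difference -2.05, SE 0.43, adjusted p = 0.00304), and its relative Ccne1 fell by 1.78. Ccnd2 rose from a low level, with 1.34, 0.954 and 1.12 FPKM in 3dai and 7.39 and 6.08 in G2 (1.85, adjusted p = 0.0197), while Ccnd1 had 176, 190.1 and 127 FPKM in 3dai and 76.0 and 80.2 in G2 and did not pass (adjusted p = 0.0599, or 0.00871 with only the 5 libraries). The calls of Ccne2 and Ccne1 were each lost without 1 G2 library (replicate 1 and replicate 2) and that of Ccnd2 without either. Cdk2 was lost without 3dai replicate 1 or either G2 library, and Cdk4 without G2 replicate 1. Of the 11 Rb family and E2F genes, Rbl2, a pocket protein of resting cells, rose by 1.04 and Rbl1 fell by 1.03 (Rbl1 was lost without 3dai replicate 2 or either G2 library, and Rbl2 in 4 of 5 fits). E2f1 had 17.8, 22.3 and 22.4 FPKM in 3dai and 11.9 and 11.4 in G2 and did not pass (adjusted p = 0.131, or 0.0334 with only the 5 libraries).

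Of 10 inhibitors of the cycle 4 rose (the fourth is Btg1), 6 were not called, and the median was 0.71. Cdkn1c, which codes the inhibitor p57, had 30.5, 8.66 and 37.0 FPKM in 3dai and 109.6 and 183 in G2 (log2 difference 2.65, SE 0.50, adjusted p = 0.00147). Cdkn2a, the locus of p16 and p19Arf, whose 2 products a gene total cannot separate, had 7.27, 9.93 and 25.9 FPKM in 3dai and 76.1 and 58.7 in G2 (2.34, SE 0.51, adjusted p = 0.00383, lost without G2 replicate 1). With no suffix it had 1.40, 1.15 and 0. Btg2, an antiproliferative gene that p53 can induce, had 2.35, 3.54 and 1.92 FPKM in 3dai and 41.4 and 51.2 in G2 (3.73, SE 0.58, adjusted p = 0.000354). For all 3 both G2 libraries exceeded every 3dai library. Cdkn1a, which codes p21, had 284, 298 and 310.0 FPKM in 3dai and 369 and 388 in G2 and Cdkn1b, which codes p27, 33.9, 31.1 and 34.3 FPKM in 3dai and 38.1 and 34.9 in G2. Neither passed (adjusted p = 0.47 and 0.807), and the G2 values of both lay above the 3dai range, for Cdkn1b only just.

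Trp53 itself, intact in both groups by genotype, had 134, 135 and 161 FPKM in 3dai and 71.0 and 59.9 in G2, a fall of 1.12 (SE 0.24, adjusted p = 0.00414) that did not pass without G2 replicate 2. Its levels with no suffix were 40.0, 53.9 and 48.1. Of 40 genes on the list of p53 and its targets, 4 rose and 3 fell, at or below the shares over all genes, and the median was 0.26. Mdm2, the p53 ubiquitin ligase, had 55.5, 60.6 and 63.4 FPKM in 3dai and 76.8 and 68.7 in G2 and Ccng1 57.2, 59.3 and 59.4 FPKM in 3dai and 70.2 and 68.7 in G2, neither past the test. The falls were Trp53, Pidd1 and Ckap2, a spindle gene whose call was lost without any 1 of the 5 libraries. Btg2 rose, as did the death receptor Fas with 8.56, 1.21 and 10.8 FPKM in 3dai and 56.6 and 25.9 in G2 (2.65, adjusted p = 0.0198) and Perp, a desmosome gene, with 1.86, 1.14 and 3.92 FPKM in 3dai and 8.69 and 10.5 in G2. Pidd1, a death domain adaptor, fell from 5.14, 7.33 and 9.67 in 3dai to 0.843 and 1.60 (-1.90, adjusted p = 0.00121). Fas was lost without 3dai replicate 2 or either G2 library, and Perp in 4 of 5 fits. Dcxr was listed at 0 in all 3dai libraries and had 3.95 and 2.72 in G2, so it passed the filter through G2 alone.

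On the list of senescence genes and their secreted factors, 8 of 22 tested (1 through G2 alone) rose and 1 fell. Of the rises 7 were secreted factors and proteases. The fall was Lmnb1, lamin B1, with 115, 133 and 126 FPKM in 3dai and 64.0 and 64.6 in G2 (-0.94, SE 0.21, adjusted p = 0.00524, lost without either G2 library). Cdkn2a is on this list too. Il6, a cytokine of inflamed and regenerating muscle, had 3.57, 5.01 and 15.7 FPKM in 3dai and 396 and 334 in G2 (5.56, SE 1.04, adjusted p = 0.00146). Igfbp7 had 15.1, 21.0 and 14.9 FPKM in 3dai and 167 and 218 in G2 (3.43) and Igfbp4 6.62, 7.63 and 5.90 FPKM in 3dai and 45.9 and 47.6 in G2 (2.63, SE 0.27, adjusted p = 1.25e-05). The G2 values of all 3 were several times the highest 3dai value. Ccl2 (36.4, 56.3 and 69.8 FPKM in 3dai and 57.7 and 50.1 in G2) and Gdf15 (7.82, 23.4 and 14.1 FPKM in 3dai and 8.77 and 11.2 in G2) did not pass, and the groups overlapped for both.

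Of 25 repair and damage signalling genes 13 fell and none rose, with a median of -1.02, and of the 11 in homologous recombination and crosslink repair 9 fell. Brca2, of homologous recombination, had 4.10, 6.69 and 3.50 FPKM in 3dai and 1.03 and 0.937 in G2 (-1.50, adjusted p = 0.00367). Chek1, the kinase of the replication checkpoint, had 23.0, 18.5 and 15.4 FPKM in 3dai and 3.03 and 6.75 in G2 (-1.82, adjusted p = 0.0067). These calls were lost without 1 G2 library each: replicate 2 for Brca2, replicate 1 for Chek1. Xrcc6, a Ku subunit of end joining, fell by 1.47. With G2 replicate 1 or 2 left out, 3 and 2 of the 25 passed, and with a 3dai replicate left out 7 to 9.

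Of 29 chromatin and nuclear envelope genes 12 fell and 3 rose. The falls included Ezh2, the Polycomb methyltransferase of dividing cells, with 71.8, 74.9 and 72.1 FPKM in 3dai and 31.7 and 34.2 in G2 (-1.12, SE 0.21, adjusted p = 0.00159), and the histone variant H2afz with 554, 491 and 597 FPKM in 3dai and 216 and 231 in G2 (-1.28, SE 0.23, adjusted p = 0.00111). Dnmt1, which copies DNA methylation, fell by 0.94 (adjusted p = 0.0148, lost without 3dai replicate 1 or G2 replicate 1). The rises were Tet2, which oxidises methylcytosine, with 2.41, 2.30 and 2.71 FPKM in 3dai and 16.8 and 16.1 in G2 (2.33, SE 0.37, adjusted p = 0.000412), the H3K27 demethylase gene Kdm6b and the Polycomb cofactor gene Jarid2. Kdm6b and Jarid2 were lost without either G2 library. Of 8 telomere genes tested only Terf1 passed, lower by 1.00 (adjusted p = 0.0478), and its call was lost in 4 of 5 fits.

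**Figure D2:**
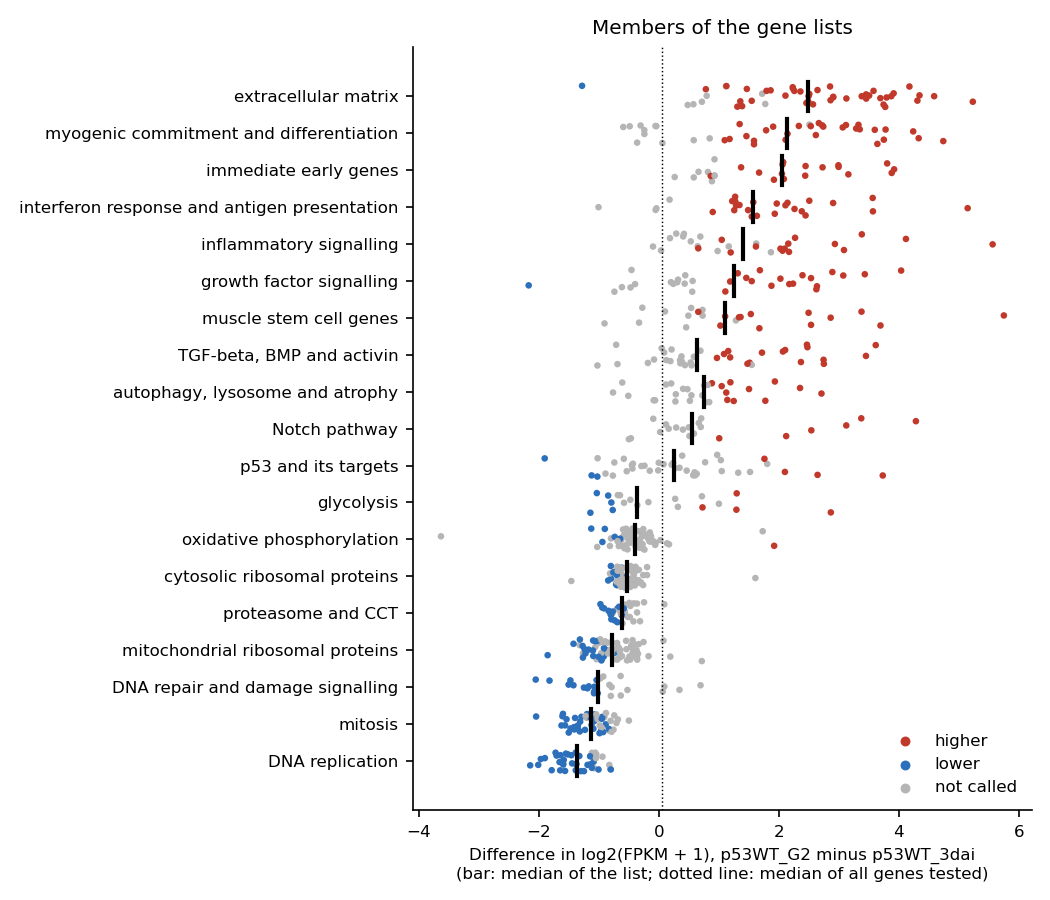
Each point is the difference in log2(FPKM + 1), p53WT_G2 minus p53WT_3dai, of 1 gene of the list named at the left (19 lists), coloured by its call. Bars mark list medians, from 2.49 for extracellular matrix to -1.37 for DNA replication, and the dotted line marks 0.06, the median of all genes tested.

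Of 23 muscle stem cell genes tested (3 of them through G2 alone), 13 rose and none fell, and the median was 1.11. Of 16 surface and secreted genes of resting cells 12 rose, and of 7 transcription factors 1. Cd34, given above, lay lower in both G2 libraries and did not pass. Chodl, a lectin-like membrane protein, had 0.96, 1.24 and 0 FPKM in 3dai and 105 and 71.8 in G2. Calcr, the calcitonin receptor that holds these cells at rest, had 0.0707, 0.829 and 0 FPKM in 3dai and 14.3 and 10.0 in G2 (log2 difference 3.38). Tenm4, a teneurin, had 0.0997, 0.439 and 0 FPKM in 3dai and 9.41 and 5.90 in G2. Calcr and Tenm4 passed the filter through G2 alone. For each of these 3 genes the 3dai libraries lay near or at 0, and with no suffix the values were higher still (334, 166 and 271 for Chodl and 54.5, 30.6 and 55.6 for Calcr). Spry1, an inhibitor of FGF signalling needed for return to rest, had 3.81, 3.41 and 7.02 FPKM in 3dai and 26.5 and 36.6 in G2 (2.54, SE 0.46, adjusted p = 0.00122). Fam132b, a secreted hormone also called erythroferrone, had 12.3, 14.0 and 8.73 FPKM in 3dai and 167 and 154 in G2 (3.69).

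Pax7 had 8.18, 6.67 and 5.45 FPKM in 3dai and 17.6 and 17.9 in G2, with both G2 libraries above all 3dai libraries, but did not pass (log2 difference 1.28, SE 0.56, adjusted p = 0.114, or 0.0131 with only the 5 libraries). Its libraries with no suffix spread from 9.33 to 43.1. Myf5 had 48.6, 68.4 and 46.1 FPKM in 3dai and 64.8 and 51.1 in G2, with overlap (adjusted p = 0.891). Without G2 replicate 1 or 2, 6 and 5 of 20 stem cell genes were called higher, and the 3 that had passed the filter through G2 alone dropped out.

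Of 20 Notch pathway genes tested 6 rose and none fell, among them 3 of 5 targets, and 3 of the targets reached 1 FPKM in G2 alone. The ligand gene called was Jag1. Notch3 had 5.66, 6.96 and 4.57 FPKM in 3dai and 56.1 and 57.9 in G2 (3.12, SE 0.32, adjusted p = 1.25e-05) and Notch1 9.21, 9.68 and 5.64 FPKM in 3dai and 20.5 and 14.2 in G2 (1.01, SE 0.26, adjusted p = 0.0118, lost without G2 replicate 1). Among direct targets, Heyl had 0.472, 0.536 and 0.782 FPKM in 3dai and 15.2 and 15.7 in G2 (3.37), Hey1 4.25, 4.30 and 0.326 FPKM in 3dai and 24.0 and 14.0 in G2 (2.54) and Nrarp, a feedback inhibitor, 0.39, 0.564 and 0.225 FPKM in 3dai and 23.9 and 28.2 in G2 (4.28). All 3 lay higher in both G2 libraries than in any of 3dai, and Heyl and Nrarp passed the filter through G2 alone. Hes1 had 15.1, 8.14 and 20.1 FPKM in 3dai and 14.6 and 22.8 in G2 and the ligand gene Dll1 21.1, 17.9 and 21.2 FPKM in 3dai and 18.6 and 25.7 in G2, each with overlapping groups and no call. None of the 9 processing and partner genes passed. Notch3 and Heyl are also known from mural cells of vessels, whose markers were higher in G2 as well, and the part of such cells in these values was not tested.

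Differentiation genes were higher too. Of 40 myogenic genes tested (3 through G2 alone) 28 rose and none fell, with a median of 2.13. Of 21 sarcomere and fibre genes tested 20 rose. Myog, the factor of terminal differentiation, had 33.0, 5.78 and 44.4 FPKM in 3dai and 162 and 304 in G2 (3.35, SE 0.92, adjusted p = 0.016). Myod1 had 261, 282 and 266 FPKM in 3dai and 192 and 193 in G2 and did not pass (adjusted p = 0.323, or 0.0236 with only the 5 libraries). Tmem8c, the fusion protein myomaker, had 15.3, 2.00 and 24.1 FPKM in 3dai and 49.3 and 98.3 in G2 (2.72, adjusted p = 0.0069). The Myog call was lost without 3dai replicate 2 or either G2 library, and that of Tmem8c without G2 replicate 2.

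The contractile genes were those of new fibres and of adult ones. Myh3, embryonic myosin, had 9.16, 2.55 and 8.08 FPKM in 3dai and 37.9 and 116 in G2 (3.29, SE 0.52, adjusted p = 0.000424), and Actc1, the actin of immature muscle, 11.9, 3.67 and 14.1 FPKM in 3dai and 77.4 and 216 in G2 (3.75). Acta1, skeletal actin, had 25.4, 14.5 and 24.3 FPKM in 3dai and 289.5 and 660.1 in G2 (4.33, SE 0.62, adjusted p = 0.000178), and the adult myosin gene Myh1 0.709, 0.423 and 1.14 FPKM in 3dai and 10.6 and 22.5 in G2 (3.25). In each, G2 replicate 2 was about 2 to 3 times replicate 1, and both exceeded every 3dai library. 3dai replicate 2 was the lowest of its group for Myog, Tmem8c, Myh3, Acta1 and Actc1. The summed FPKM of 12 mature fibre markers was 60.6 to 88.6 in 3dai, 454 and 970.1 in G2, and 78.4 to 140.4 with no suffix. Fibre fragments and differentiating cells share these transcripts, and their parts were not tested. Without G2 replicate 2, 10 of 37 myogenic genes were called, against 18 of 37 without replicate 1.

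Myogenic factors bind E boxes, of which CAGCTG, a palindrome, is a preferred form. It lay in the 250 bases before the start in 38.2% of 34 starts of 29 matched genes of this list, against 13.0% of all starts. Chrng, the fetal acetylcholine receptor subunit (chr1:87205561-87205810, plus strand), and Mylpf, a fast myosin light chain (chr7:127211358-127211607, plus strand), are shown as examples. Chrng holds 2 matches and Mylpf 1, 51 bases before the start. Mylpf had 34.6, 8.15 and 28.3 FPKM in 3dai and 163 and 516 in G2 (3.78, SE 0.67, adjusted p = 0.000975) and Chrng 11.8, 12.0 and 20.2 FPKM in 3dai and 33.2 and 60.2 in G2 (log2 difference 1.59, SE 0.40, adjusted p = 0.00968, lost without G2 replicate 2).
Chrng: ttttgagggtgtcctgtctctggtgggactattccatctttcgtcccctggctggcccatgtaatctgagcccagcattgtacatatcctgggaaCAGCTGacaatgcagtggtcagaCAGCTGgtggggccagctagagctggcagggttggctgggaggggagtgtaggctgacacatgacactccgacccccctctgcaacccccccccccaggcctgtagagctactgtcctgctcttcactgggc
Mylpf: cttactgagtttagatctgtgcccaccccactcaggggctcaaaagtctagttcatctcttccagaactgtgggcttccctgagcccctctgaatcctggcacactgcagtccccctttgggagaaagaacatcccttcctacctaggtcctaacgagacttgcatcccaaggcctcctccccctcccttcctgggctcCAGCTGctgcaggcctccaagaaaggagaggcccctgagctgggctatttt

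The complex that links the cytoskeleton to the fibre's basement membrane was higher. Of 16 dystrophin complex genes tested (2 through G2 alone) 10 rose and none fell, with a median of 1.33. Dmd, which codes dystrophin, had 0.714, 0.781 and 0.722 FPKM in 3dai and 3.75 and 3.52 in G2 (1.41, passing the filter through G2 alone), against 20.5, 12.5 and 18.1 with no suffix. Its relative Utrn, utrophin, had 8.77, 10.4 and 6.70 FPKM in 3dai and 25.0 and 18.3 in G2 (1.24, adjusted p = 0.00484, lost without G2 replicate 1). Sgca, alpha-sarcoglycan, had 3.24, 1.58 and 0 FPKM in 3dai and 12.8 and 12.7 in G2, and the syntrophin gene Sntb1 5.00, 2.99 and 1.49 FPKM in 3dai and 14.0 and 25.7 in G2 (lost without G2 replicate 2). Every G2 library exceeded every 3dai library for these 4 genes, as the choice of genes named by size requires. Of the 14 still tested without G2 replicate 1 or 2, 5 and 4 passed.

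**Figure D3:**
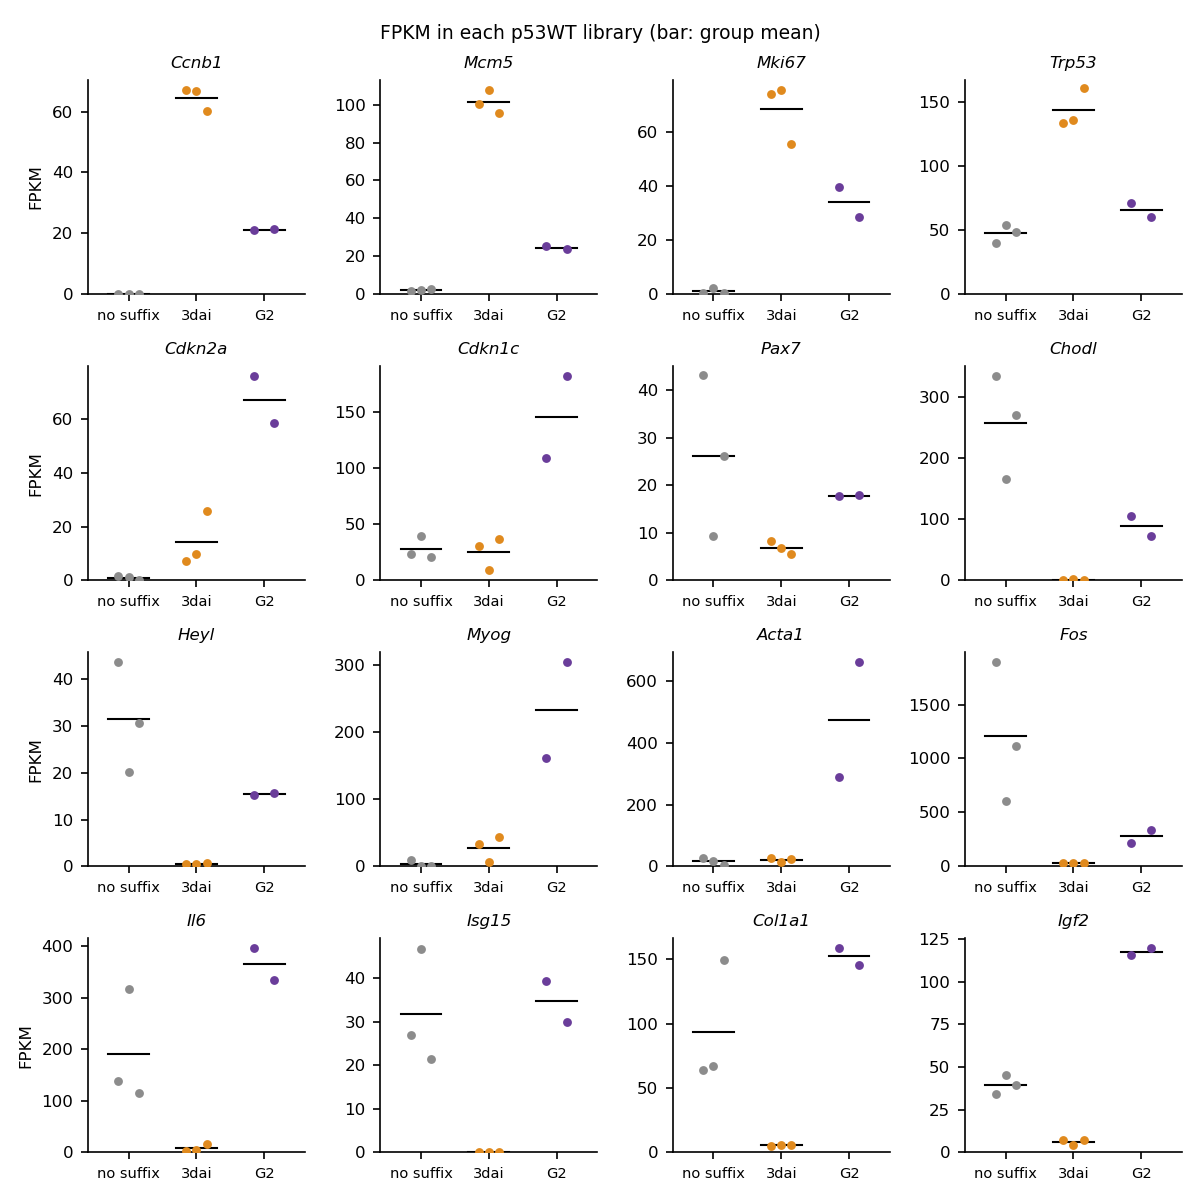
FPKM (y axis, linear from 0) of 16 genes in each p53WT library with no suffix (n = 3), in 3dai (n = 3) and in G2 (n = 2). Points are libraries and bars group means; Ccnb1 is highest in 3dai, Myog, Acta1, Cdkn2a and Igf2 are highest in G2, and Chodl and Fos are lowest in 3dai.

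Immediate early genes, which respond within minutes to growth factors or to stress, were higher in G2. Of 25 tested 17 rose and none fell, with a median of 2.05. Fos had 27.2, 28.5 and 33.6 FPKM in 3dai and 218 and 340.5 in G2 (3.16, SE 0.53, adjusted p = 0.000683), Egr1 13.2, 11.6 and 8.71 FPKM in 3dai and 169 and 183 in G2 (3.88, SE 0.62, adjusted p = 0.00048) and Nr4a1 9.63, 8.90 and 4.86 FPKM in 3dai and 119 and 117 in G2 (3.80, SE 0.44, adjusted p = 3.62e-05). In all 3 genes the lowest G2 library was several times the highest 3dai library. Atf3 had 21.1, 22.4 and 20.3 FPKM in 3dai and 108 and 80.9 in G2 (2.08, lost without G2 replicate 1). Jun had 80.9, 85.4 and 83.4 FPKM in 3dai and 161 and 149 in G2 and Myc 73.1, 74.7 and 58.7 FPKM in 3dai and 143 and 121 in G2, with both G2 libraries higher and neither past the test (adjusted p = 0.214 and 0.105). With only the 5 libraries both passed (adjusted p = 0.00349 and 0.00766). Mean log2(FPKM + 1) over the list was 4.39 to 4.59 in 3dai, 6.39 and 6.50 in G2, and 7.57 to 8.32 with no suffix. Leaving out either G2 library left 11 of 25.

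Of 12 cytosolic heat shock and chaperone genes 5 rose, Dnajb1, Hspb1, Hspb8, Cryab and Bag3. Hspb8 had 28.5, 31.7 and 28.4 FPKM in 3dai and 84.6 and 104 in G2, Bag3 34.7, 24.4 and 42.2 FPKM in 3dai and 211 and 136 in G2 and Cryab 45.6, 58.5 and 62.2 FPKM in 3dai and 270.2 and 228 in G2 (2.15, SE 0.37, adjusted p = 0.000718). Hspb1 had 37.7, 22.6 and 30.4 FPKM in 3dai and 522 and 140.3 in G2 (3.15), with its 2 G2 libraries far apart. Hspa1a had 8.03, 10.2 and 8.70 FPKM in 3dai and 178 and 38.0 in G2 and did not pass (adjusted p = 0.0891, or 0.00876 with only the 5 libraries). Its near-identical copy Hspa1b had 19.8, 14.8 and 23.2 FPKM in 3dai and 246 and 49.1 in G2, and reads of the pair are hard to assign to one copy. G2 replicate 1 was above replicate 2 for Hspa1a, Hspa1b, Hspb1 and Bag3. Of 5 organelle chaperones 3 fell, the mitochondrial Hspd1, Hspe1 and Hspa9, the last with 622, 610.1 and 574 FPKM in 3dai and 300.1 and 312 in G2 (-0.97, SE 0.20, adjusted p = 0.00315). Hspd1 was lost without G2 replicate 2, and Hspe1 and Dnajb1 in 4 of 5 fits. Hspa5 of the endoplasmic reticulum rose by 0.99 (lost without G2 replicate 1).

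Extracellular matrix genes had the highest median of the lists of pathways, 2.49. Of 49 tested (4 through G2 alone), 41 rose and 1 fell, and 31 of 45 were called higher without either G2 library. All 17 collagens rose, with a median of 3.58. Col1a1, of fibrillar type I collagen, had 4.83, 5.45 and 5.89 FPKM in 3dai and 159 and 146 in G2 (4.59, SE 0.47, adjusted p = 1.25e-05). Col3a1 had 47.0, 53.8 and 58.4 FPKM in 3dai and 326 and 311 in G2 (2.57), and Col6a1, of the satellite cell niche, 4.48, 6.30 and 5.27 FPKM in 3dai and 114 and 141 in G2 (4.34). Col4a1 and Col4a2 of the basement membrane had 3.80, 7.97 and 4.31 FPKM in 3dai and 113 and 106 in G2 and 3.44, 3.06 and 1.57 FPKM in 3dai and 69.7 and 70.6 in G2. Each collagen named was lower in all 3dai libraries than in both of G2.

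Of 17 glycoproteins and proteoglycans 12 rose. Postn, periostin, had 5.76, 8.72 and 5.38 FPKM in 3dai and 268 and 292 in G2 (5.23, SE 0.53, adjusted p = 1.12e-05), Fn1, fibronectin, 12.0, 11.3 and 5.54 FPKM in 3dai and 117 and 104 in G2 (3.46) and the small proteoglycan Dcn 27.2, 38.0 and 28.0 FPKM in 3dai and 176 and 178 in G2 (2.49). The fall was Spp1, osteopontin, with 772, 676 and 716 FPKM in 3dai and 276 and 318 in G2 (-1.28, SE 0.30, adjusted p = 0.00659, lost without G2 replicate 1). With no suffix Spp1 had 20.2, 20.8 and 23.0. Tnc, tenascin C, had 31.5, 47.3 and 21.7 FPKM in 3dai and 201 and 161 in G2 (2.46, lost without G2 replicate 1). Lox, the collagen crosslinking enzyme, had 11.0, 8.36 and 8.68 FPKM in 3dai and 30.6 and 35.5 in G2 and did not pass (adjusted p = 0.0779, or 0.00269 with only the 5 libraries).

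Of 36 TGF-beta, BMP and activin genes tested (1 through G2 alone) 16 rose and none fell. The ligand genes Tgfb2 and Tgfb3 had 6.45, 8.12 and 3.74 FPKM in 3dai and 29.9 and 27.2 in G2, and 1.68, 3.05 and 2.44 FPKM in 3dai and 21.0 and 21.9 in G2. Tgfb1 had 7.80, 14.0 and 8.60 FPKM in 3dai and 29.3 and 30.5 in G2 (1.51, adjusted p = 0.0203, lost in 4 of 5 fits). Ltbp4, which stores latent TGF-beta in the matrix, had 3.22, 3.88 and 3.37 FPKM in 3dai and 58.4 and 49.7 in G2 (3.61, SE 0.31, adjusted p = 2.38e-06). Bmp6 had 0.663, 1.58 and 0 FPKM in 3dai and 20.8 and 13.5 in G2 (3.45). For these 5 genes no 3dai library reached a G2 library. Of 12 Smads and target genes 2 rose, near the share over all genes (15.7%). Id1, a BMP target, had 147, 188 and 285 FPKM in 3dai and 81.7 and 116 in G2 and did not pass (adjusted p = 0.0718, or 0.0372 with only the 5 libraries). Leaving out either G2 library left 8 of 35.

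Matrix genes are also made by other cells of muscle, and their markers differed in the same direction. Of 10 tenocyte markers 8 rose, and their summed FPKM was 38.7 to 85.8 in 3dai, 483.5 and 562 in G2 and 249.9 to 479 with no suffix. Tnmd, tenomodulin, had 0, 0.752 and 0 FPKM in 3dai and 39.7 and 54.3 in G2 (5.30, passing the filter through G2 alone) and Thbs4 11.5, 10.7 and 10.9 FPKM in 3dai and 308 and 355 in G2 (4.79). Scx, the defining tendon factor, had 26.1, 38.0 and 70.4 FPKM in 3dai and 25.5 and 37.3 in G2 and did not differ beyond its spread (adjusted p = 0.551). Of 12 pericyte and smooth muscle markers 10 rose, with sums of 21.3 to 49.5 in 3dai, 642 and 742 in G2 and 311 to 998 with no suffix. Myh11, smooth muscle myosin, had 0.307, 0.407 and 0.065 FPKM in 3dai and 86.7 and 97.3 in G2 (6.21, passing the filter through G2 alone), and Rgs5 0.216, 3.26 and 1.41 FPKM in 3dai and 104 and 137 in G2 (5.70).

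Schwann cell markers summed to 23.9 to 35.2 in 3dai, 242 and 244 in G2 and 680.5 to 752 with no suffix, and 9 of 13 listed rose. Sox10, the factor that defines these cells, had 0, 0.378 and 0.71 FPKM in 3dai and 3.75 and 5.07 in G2. Fibro-adipogenic progenitor markers summed to 30.1 to 48.5 in 3dai and 288.5 and 302.5 in G2, and 4 of 10 rose. Dpt had 5.97, 1.50 and 0 FPKM in 3dai and 77.7 and 96.7 in G2, while the defining receptor Pdgfra stayed low with 0.127, 0.659 and 0 FPKM in 3dai and 1.53 and 1.10 in G2 and did not pass (adjusted p = 0.125). Endothelial markers summed to 4.09 to 7.77 in 3dai and to 55.1 and 49.8 in G2, with 4 of 12 called. Fabp4 and Esam were listed at 0 in all 3dai libraries and had 21.6 and 24.2, and 15.1 and 15.8 in G2, and Cdh5, of endothelial junctions, had 0.244, 1.39 and 0.518 FPKM in 3dai and 3.38 and 2.90 in G2 (lost in 4 of 5 fits). Of 16 macrophage markers 4 were tested and none passed, though Lyz2 did with only the 5 libraries (adjusted p = 0.0113). The difference of Lyz2 stayed between 2.53 and 3.33 when any 1 library was left out. Csf1r, C1qb, Adgre1 and Ptprc were listed at 0 in all 5 libraries, and the markers summed to 2.92 to 9.76 in 3dai and to 20.8 and 27.6 in G2. No lymphocyte (9), neutrophil (5) or adipocyte (5) marker passed the filter. Of 7 red blood cell markers Hbb-b1, a globin gene, was listed at 0 in 3dai and had 13.7 and 8.19 in G2. Of the genes that passed it, 6 tenocyte, 6 pericyte, 5 Schwann cell and 3 endothelial markers did so through G2 alone. The same held for Hbb-b1 and for Pdgfra of the fibro-adipogenic list. The part of such cells in the matrix, TGF-beta, Notch and cytokine values was not tested.

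**Figure D4:**
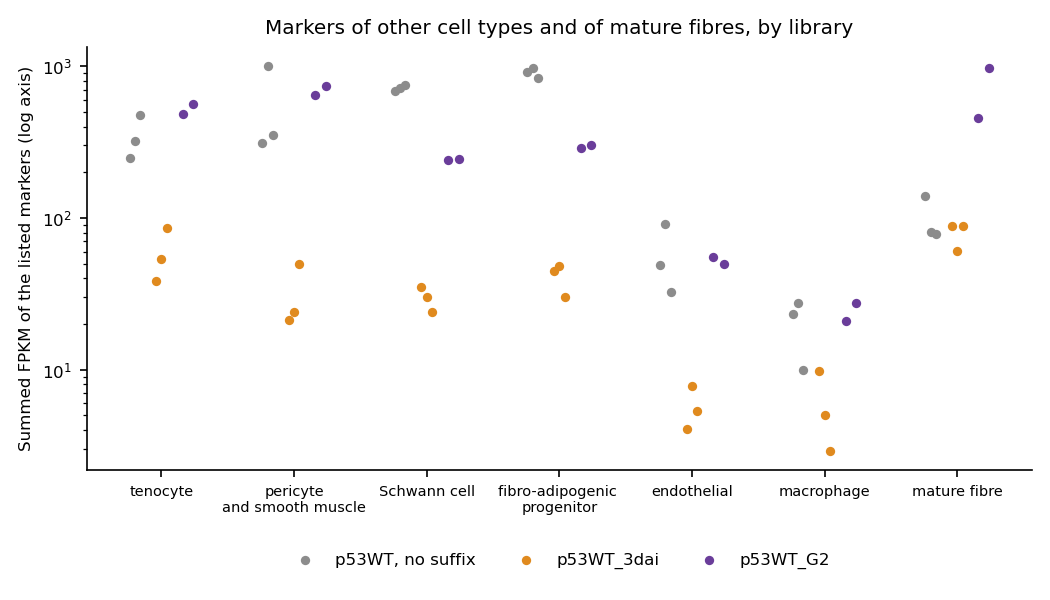
Summed FPKM (log axis) of the listed markers of 6 other cell types and of mature fibres in each p53WT library with no suffix (n = 3), of 3dai (n = 3) and of G2 (n = 2). Each point is 1 library; for all 7 lists both G2 libraries lie above all 3 of 3dai, and G2 lies at or below the range with no suffix for Schwann cell and fibro-adipogenic progenitor markers.

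Interferon response and antigen presentation genes were higher in G2. Of 27 tested (7 through G2 alone) 23 rose, none fell, and the median was 1.57. Isg15, a ubiquitin-like effector, was listed at 0 in all 3dai libraries and had 39.4 and 30.0 in G2. Gbp2, a GTPase that interferon gamma induces, had 3.92, 4.56 and 0 FPKM in 3dai and 37.8 and 31.9 in G2 (3.57). B2m, the light chain of MHC class I, had 216, 199.8 and 307 FPKM in 3dai and 682 and 492 in G2 (1.29, SE 0.25, adjusted p = 0.00202), and the heavy chain gene H2-K1 48.6, 48.5 and 38.8 FPKM in 3dai and 137 and 88.5 in G2 (1.27). Related H2 genes can share reads with it. Psmb8 and Psmb9, subunits of the immunoproteasome, were both listed at 0 in 3dai and had 13.3 and 8.74, and 7.21 and 5.82 in G2. The libraries with no suffix overlapped those of G2, with 592, 625 and 394 for B2m and 27.0, 46.8 and 21.5 for Isg15. Without G2 replicate 1 or 2, 7 and 10 of 20 were called, and 7 genes no longer passed the filter. The call of H2-K1 and that of B2m were lost without G2 replicate 1.

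The interferon-stimulated response element, searched as GAAA, any 2 bases and GAAA again, lay within 250 bases before the start in 31.0% of 29 starts of 25 matched genes on this list, against 2.98% of all starts. Matched genes were searched whether called or not, so the share describes the list and not the difference between G2 and 3dai. Isg15 (chr4:156200819-156201068, minus strand) and Gbp2 (chr3:142620413-142620662, plus strand) are shown. Isg15 holds 3 matches, each overlapping the next, the first 78 bases before the start, and Gbp2 holds 1 on the other strand, 59 bases before it.
Isg15: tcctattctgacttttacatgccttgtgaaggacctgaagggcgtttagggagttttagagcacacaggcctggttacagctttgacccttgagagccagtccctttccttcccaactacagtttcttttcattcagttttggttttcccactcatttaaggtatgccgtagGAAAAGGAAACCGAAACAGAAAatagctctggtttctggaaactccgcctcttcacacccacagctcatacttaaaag
Gbp2: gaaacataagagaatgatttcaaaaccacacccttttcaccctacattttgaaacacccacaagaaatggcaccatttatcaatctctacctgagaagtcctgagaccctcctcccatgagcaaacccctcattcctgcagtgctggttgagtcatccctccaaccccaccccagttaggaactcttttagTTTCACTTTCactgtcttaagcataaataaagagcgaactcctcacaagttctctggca

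Of 28 inflammatory signalling genes tested (1 through G2 alone) 15 rose and none fell. Il6, given above, had the largest difference. Its downstream factor Stat3 had 11.7, 11.5 and 12.4 FPKM in 3dai and 119 and 98.1 in G2 (3.08, SE 0.36, adjusted p = 3.67e-05), Osmr, a receptor of the same cytokine family, 1.65, 1.93 and 4.40 FPKM in 3dai and 71.6 and 49.0 in G2 (4.12) and Cebpd 4.57, 4.57 and 0.606 FPKM in 3dai and 38.6 and 36.1 in G2 (3.38). For these 3 genes the lowest G2 library was several times the highest 3dai library. The count depends on single libraries: it was 8 without 3dai replicate 3, 7 without G2 replicate 1 and 5 without G2 replicate 2.

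Growth factor genes included 18 rises and 1 fall among 32 tested (2 through G2 alone). Igf2, an imprinted fetal growth factor, had 7.39, 4.60 and 7.03 FPKM in 3dai and 116 and 119.7 in G2 (4.04, SE 0.30, adjusted p = 7.29e-07), and its neighbour H19, a noncoding RNA, 60.4, 48.6 and 93.9 FPKM in 3dai and 169.6 and 345 in G2 (1.88, adjusted p = 0.00918, lost without G2 replicate 2). Igf2bp2, an RNA-binding protein of fetal and activated cells, had 5.08, 6.20 and 4.03 FPKM in 3dai and 40.2 and 47.7 in G2 (2.89). Hgf, an activating ligand of these cells, was listed at 0 in all 3dai libraries and had 13.3 and 3.94 in G2. It passed the filter through G2 alone. Its receptor gene Met had 106, 119 and 77.5 FPKM in 3dai and 77.6 and 73.0 in G2 and did not pass. Igfbp2 was the fall, with 47.9, 27.9 and 61.3 FPKM in 3dai and 10.3 and 7.64 in G2 (-2.17, adjusted p = 0.0179, lost without 3dai replicate 3 or either G2 library). Dusp6, a phosphatase that ERK signalling induces and that restrains it, had 5.78, 6.47 and 6.09 FPKM in 3dai and 42.8 and 42.9 in G2 (2.62, SE 0.23, adjusted p = 2.38e-06). Of 10 such feedback genes 6 rose.

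Of 77 cytosolic ribosomal protein genes 14 fell and none rose, beside 7.82% called lower and 15.7% called higher over all genes. For 73 of 77 both G2 libraries lay under all of 3dai, as for 25.9% of all genes, and the median was -0.53. Under quantile normalization that median was -0.17, against -0.12 for all genes. Rpl27 had 315, 355 and 482 FPKM in 3dai and 183 and 241 in G2 (-0.84, SE 0.21, adjusted p = 0.0083, lost without G2 replicate 1). Processed pseudogenes can share reads with these genes. Of 74 mitochondrial ribosomal protein genes 20 fell, with a median of -0.78. Of 18 ribosome biogenesis genes 8 fell. Npm1, the nucleolar chaperone nucleophosmin, had 2854, 2463 and 3115 FPKM in 3dai and 999.5 and 996 in G2 (-1.49, SE 0.24, adjusted p = 0.000466). Ncl, nucleolin, had 555, 558 and 499 FPKM in 3dai and 239 and 227 in G2 (-1.20, lost without G2 replicate 2). These counts shrink without a G2 library, to 0 and 1 of 77, 7 and 4 of 74, and 2 and 1 of 18. The 77 also gave 1 call without 3dai replicate 3, whose values are the highest of its group for Rpl27.

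Of 8 subunits of the CCT chaperonin 7 fell, and of 31 proteasome subunits 7. Cct6a had 528, 512 and 602 FPKM in 3dai and 271 and 285 in G2 (-0.97, SE 0.24, adjusted p = 0.00831, lost without either G2 library). Of the 39 genes of both kinds, 0 and 2 passed without 1 G2 library. Of 69 oxidative phosphorylation genes 5 fell (Ndufs6, Ndufs7, Cycs, Cox5a and Atp5f1) and the muscle form Cox6a2 rose, shares near or under those over all genes, with a median of -0.40 (-0.17 under quantile normalization). Cox6a2 passed the filter through G2 alone. The 5 falls became 2 without 3dai replicate 1 or replicate 3, 1 without G2 replicate 1 and 0 without G2 replicate 2.

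Of 10 glycolysis genes of the lower steps and lactate 5 fell and 1 rose. Falls included Gapdh with 799, 743 and 861 FPKM in 3dai and 452 and 473 in G2 (-0.79, SE 0.17, adjusted p = 0.00339), Pkm with 996, 1041 and 1103 FPKM in 3dai and 559.9 and 606 in G2 (-0.84, SE 0.15, adjusted p = 0.00111) and Ldha, which makes lactate, with 869, 797 and 986 FPKM in 3dai and 408 and 454 in G2 (-1.03, SE 0.24, adjusted p = 0.00597). With no suffix these genes were lower still, at 112, 152 and 118, 192, 186 and 211 and 265, 274 and 171. Gapdh and Ldha were lost without G2 replicate 1. Of 9 genes of transport and the upper steps 3 rose, among them the hexokinase gene Hk2 with 25.0, 20.5 and 13.7 FPKM in 3dai and 53.3 and 44.4 in G2 (1.30, lost in 4 of 5 fits). Pgam2, the muscle form of its enzyme and the rise of the lower steps, had 0.438, 0 and 2.28 FPKM in 3dai and 4.71 and 25.2 in G2 and was also lost in 4 of 5. Eno1 is listed at under 0.0001 FPKM in all 5 libraries and was not tested.

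Other groups gave mixed or few calls, to be read beside the shares over all genes, 15.7% higher and 7.82% lower. Of 29 autophagy and lysosome genes 11 rose and none fell, including Lamp2 of the lysosome membrane with 52.8, 49.0 and 44.9 FPKM in 3dai and 180.3 and 159 in G2 (1.77, SE 0.18, adjusted p = 1.12e-05) and Map1lc3a of the autophagosome with 8.92, 9.69 and 22.0 FPKM in 3dai and 83.7 and 90.5 in G2 (2.71). Without G2 replicate 2 the 11 became 5. Among antioxidant genes 5 of 26 rose and 3 fell, near the shares over all genes. Gpx3, a secreted peroxidase, had 30.4, 28.6 and 28.2 FPKM in 3dai and 354 and 286 in G2 (3.41) against 3753, 3417 and 3020 with no suffix, while Gsr, glutathione reductase, had 59.0, 62.8 and 65.7 FPKM in 3dai and 28.3 and 29.3 in G2 (-1.09, lost without either G2 library). The medians of the antioxidant and cholesterol lists were -0.09 and -0.07. The first was 0.02 without 3dai replicate 3 and 0.17 without G2 replicate 2, and the second was 0.18 without G2 replicate 2. Of 18 genes of the YAP and TEAD pathway 5 rose and 3 fell. Wwtr1, which codes TAZ, had 42.9, 38.5 and 35.4 FPKM in 3dai and 94.3 and 92.6 in G2 (1.25, SE 0.17, adjusted p = 0.0001). Of 7 targets Ctgf, Cyr61 and Amotl1 were called higher and Amotl2, Axl and Ajuba lower. Ctgf had 21.4, 16.8 and 4.94 FPKM in 3dai and 88.1 and 121 in G2, and Amotl2 had 34.9, 51.7 and 38.0 FPKM in 3dai and 16.9 and 13.8 in G2. The call of Ctgf was lost without any 1 library, those of Cyr61, Axl and Ajuba without 4 of the 5 and that of Amotl2 without 3. Counts of 1 higher and 1 lower target were left without 3dai replicate 1, and of 1 higher and 0 lower without 3dai replicate 2 or either G2 library. Of 15 clock genes 4 rose, namely Npas2, Cry1, Nfil3 and the period gene Per1, which had 2.13, 3.63 and 5.67 FPKM in 3dai and 19.1 and 24.5 in G2 (2.30). Cry1 was lost without 3dai replicate 3 or either G2 library and Nfil3 without either G2 library. Npas2 passed the filter through G2 alone and was not tested without a G2 library. The difference of Per1 stayed between 2.03 and 2.57 when any 1 library was left out. Of 20 Wnt and Hedgehog genes 1, the secreted Wnt modulator Dkk3, rose, at 0, 0.0558 and 0 FPKM in 3dai and 2.19 and 2.50 in G2. Dkk3 too passed the filter through G2 alone.

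Genes of limb position were examined because the muscles differ. Of 20 tested 1 rose and 2 fell, beside 15.7% called higher and 7.82% called lower over all genes. The median was -0.09 and turned to 0.04 without 3dai replicate 2. Tbx4, a hind limb factor, had 1.77, 3.53 and 1.16 FPKM in 3dai and 7.38 and 6.61 in G2 (1.41, adjusted p = 0.0113), Tbx1 15.3, 11.4 and 15.7 FPKM in 3dai and 4.42 and 3.18 in G2 (-1.66, adjusted p = 0.00414) and Hoxa10 10.8, 8.24 and 6.70 FPKM in 3dai and 3.83 and 3.35 in G2 (-1.04, adjusted p = 0.0442). Tbx4 was lost without either G2 library, Tbx1 without replicate 2, and Hoxa10 in 4 of 5 fits. Hoxc10 had 7.32, 14.8 and 22.5 FPKM in 3dai and 13.6 and 15.9 in G2 with overlap.

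Among genes whose group means reached 5 FPKM on the higher side and whose groups did not overlap, with small RNAs and unnamed loci left out, the 12 largest rises were Myh11, Sparcl1, Chodl, Rasd1, Rgs5, Il6, Tagln, Ccl11, Crispld2, Avpr1a, Tnmd and Rarres2, from 6.21 to 5.28. Of these Myh11, Avpr1a and Tnmd passed the filter through G2 alone. Sparcl1, a matrix glycoprotein of the SPARC family, had 2.54, 3.37 and 2.51 FPKM in 3dai and 191 and 227 in G2 (5.79), and Rasd1, a Ras-like gene that glucocorticoids induce, 0, 0 and 1.35 FPKM in 3dai and 56.6 and 85.0 in G2 (5.73). Tagln, a smooth muscle actin-binding protein, had 3.34, 4.71 and 9.06 FPKM in 3dai and 282 and 306 in G2 (5.55), and the chemokine gene Ccl11 1.95, 1.01 and 3.21 FPKM in 3dai and 166 and 92.8 in G2 (5.42). All were under 10 FPKM in each 3dai library except Il6, at 3.57, 5.01 and 15.7.

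The 12 largest falls were smaller, from -3.69 to -2.36: Fgfbp1, Trib3, Mcpt8, Erdr1, Fgf21, Krt80, Coa6, Dlk2, Bex2, Zdhhc2, Rps6ka6 and Zfp672. Fgfbp1, which releases FGF from the matrix, had 32.0, 40.4 and 33.9 FPKM in 3dai and 0.914 and 3.10 in G2 (-3.69, SE 0.54, adjusted p = 0.000217). Mcpt8, a basophil protease, had 7.40, 7.25 and 9.91 FPKM in 3dai and was listed at 0 in both G2 libraries, so it passed the filter through 3dai alone. Trib3, a gene of the amino acid and stress response, had 55.6, 36.0 and 50.8 FPKM in 3dai and 4.38 and 2.88 in G2 and Fgf21, a hormone of the same response, 18.7, 19.3 and 17.9 FPKM in 3dai and 2.97 and 1.08 in G2. The 3dai values of both were several times those of G2, but the calls of Trib3 (adjusted p = 0.0346) and Fgf21 (adjusted p = 0.0495) were lost without any 1 of the 5 libraries. Zdhhc2 fell by 2.39 (SE 0.30, adjusted p = 6.26e-05) and Rps6ka6 by 2.38 (SE 0.32, adjusted p = 0.000109), and neither was lost when a library was left out. Erdr1 and Bex2 were lost without G2 replicate 1, Dlk2 without 3dai replicate 2 or G2 replicate 1, and Krt80, Coa6 and Zfp672 without either G2 library.

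The same contrast in p53KO cells uses other libraries (2 of G2 and 3 of 3dai) and gave 2967 calls (25.4%). Of the 2745 genes called in p53WT, 2670 (97.3%) had the same sign in p53KO, against 78.2% of all genes tested, and 1820 were called there as well. The test of the difference between the genotypes passed for 2 of 11679 genes (0.0171%) by limma, and 647 had an unadjusted p under 0.05. Without p53KO_3dai replicate 1 the 2 became 107, of which 15 are among the genes named by the rule here and 21 were called in p53WT. They include Egr1, Fgfbp1, Trib3, Fgf21, Ctgf, Myc and Lox. That library's p53 target list summed to 1016 FPKM against 501.3 and 527.1 in the other p53KO_3dai libraries and 1361 to 1488 in p53WT_3dai. Its mean log2(FPKM + 1) over the inflammatory list was 4.14 against 2.43 and 2.41, with 3.43 to 3.92 in p53WT_3dai, and Mir6236, a small RNA, held 1.31% of its summed FPKM against 9.81% and 10.1%, with 1.15% to 1.78% in p53WT_3dai. Without it the p53KO contrast gave 3314 calls, and 96.4% of the 2745 genes had the same sign. The part of this library in the genotype comparison was not tested further. Cdkn3, a phosphatase of cell cycle kinases, had 9.05, 16.6 and 9.37 FPKM in 3dai and 9.97 and 14.7 in G2 in p53WT, with overlap, and 15.4, 33.4 and 19.1 in 3dai against 0 and 0.0844 in G2 of p53KO. The other is Snora33, a small nucleolar RNA listed at 0 in all 3dai and all p53KO libraries of this contrast and at 91.6 and 167 in p53WT_G2. Trp53, which marks the genotype, had 41.3, 45.7 and 34.9 in p53KO_3dai and 16.8 and 19.8 in p53KO_G2, each below every p53WT library of its state. Whether the other differences described here hold equally in both genotypes depends on that library and is not settled by these counts.

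**Figure D5:**
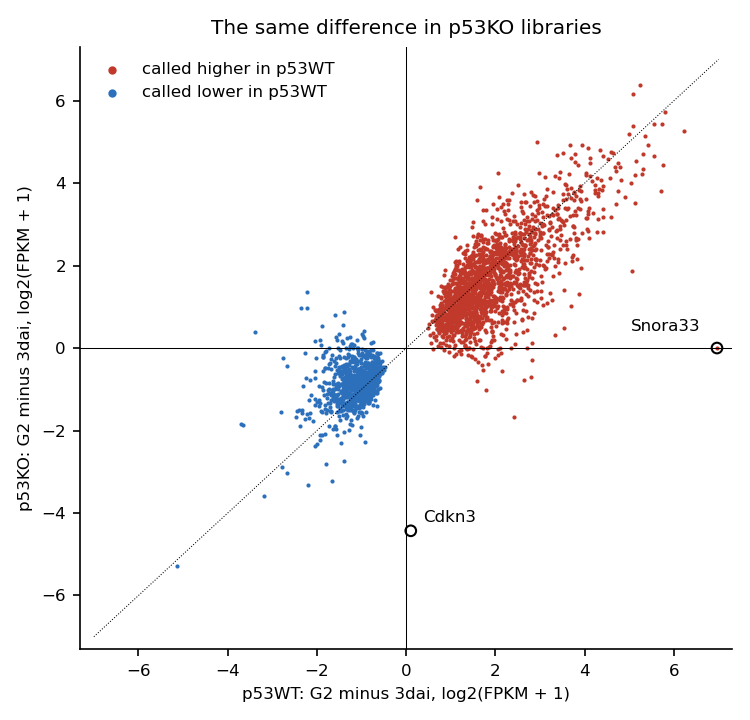
Difference G2 minus 3dai in log2(FPKM + 1) in p53WT libraries (x axis) and p53KO libraries (y axis) for the 2745 genes called in p53WT, with Cdkn3 and Snora33 circled and the line of equal differences dotted. Points lie mostly in the lower left and upper right of the plot, and 97.3% have the same sign in both genotypes.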

How the data were processed

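Total RNA was sequenced, and the authors deposited 1 table of FPKM per gene for each library. Per the submitters' processing notes the authors used STAR, Cufflinks and Cuffdiff with mm10, whose versions the labels and file headers do not state. FPKM is length scaled and keeps no depth, so log2(FPKM + 1) was tested with limma 3.58.1 (R 4.3.3; moderated test with trend) on all 16 libraries in 6 group means, with p-values adjusted by Benjamini-Hochberg over the 11679 genes that reached 1 FPKM in at least 2 of the 5 libraries, and a call at 0.05. Figures used matplotlib 3.10.9 and tables pandas 2.3.3 in Python 3.11.15.

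Named genes were the largest rises and falls (12 each, mean of at least 5 FPKM in the higher group, no overlap, small RNA names and unnamed loci left out), up to 4 per list and direction, and genes chosen by role. The comparison, the 44 gene lists and the role genes were chosen with earlier results of these data known. Chrng, Btg1, Rbl2 and other genes that only complete a list's count were named after their values were seen. On simulated data with 200 of 11679 genes changed, the test recovered 22.5% at 2-fold and 84.5% at 4-fold. Of the calls, 6.25% and 4.52% were wrong. The changed genes were drawn from those above 5 FPKM in p53WT_3dai, with independent noise for each gene and library. These rates may not hold for low genes, for noise that a library's genes share, or where more genes differ. Near-identical copies and overlapping genes can share reads. Promoters came from RefSeq (GRCm38.p6). Some genes of the lists are counted but not reported here by name.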

Additional observations from a re-analysis of the deposited data

Results flagged for a closer look

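In 2 genes the difference between G2 and 3dai was not the same in p53KO as in p53WT by limma's interaction test over 11679 genes. Cdkn3 had 9.05, 16.6 and 9.37 FPKM in p53WT_3dai and 9.97 and 14.7 in p53WT_G2, against 15.5, 33.4 and 19.1 in p53KO_3dai and 0 and 0.0844 in p53KO_G2. The p53KO difference minus the p53WT difference was -4.53 on the log2 scale (SE 0.51, adjusted p = 0.00103). Snora33 was listed at 0 in p53WT_3dai and in all p53KO libraries of the contrast and had 91.6 and 167 FPKM in p53WT_G2. Its fitted value, which depends on the pseudocount because of the zeros, was -6.96 (adjusted p = 8.04e-07).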

How the results depend on the processing

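The higher calls (1832) were 1134 among genes with a mean of at least 5 FPKM, where fewer genes were tested, and 623 to 1978 when 1 library was left out. The lower calls (913) were 1701 with array weights, 1376 with only the 5 libraries compared, and 244 to 983 when 1 library was left out, with 603 without 3dai replicate 1, 244 without G2 replicate 1 and 254 without G2 replicate 2. The 2 genes that differed between genotypes became 11 with no filter, 4 with a pseudocount of 0.1, 1 with small RNA names left out, and 1 to 107 when 1 library was left out. The cause of these moves was not tested, beyond the smaller number of genes or samples. No direction of a called named gene reversed under the alternatives run. Of 227 called named genes 35 lost the call with a pseudocount of 0.1, 20 with no filter and 18 with quantile normalization. Without either G2 library 83 of the 199 still tested lost it. Named genes gained a call too: 16 with only the 5 libraries, 17 with array weights, 12 with only the 8 p53WT libraries and 9 without p53KO_3dai replicate 1. Leaving out p53KO libraries was added for the p53WT contrast after seeing the data.

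Whether the replicate numbers pair the libraries could not be decided. Deviations from group means correlated across genes at 0.0439 for number 1 and -0.0489 for number 2. With 2 G2 libraries, however, the deviations of one are those of the other with the sign turned. A fit with the replicate number as a block gave 1630 higher and 812 lower calls, kept 2339 of the 2745 calls, and lost 10 of the 227 named calls.

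With 2 G2 libraries and depth unknown, a gene that missed the test is not shown to be the same in both states.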

Other observations

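Eno1, the abundant enolase of glycolysis, was listed at under 0.0001 FPKM in each of the 5 libraries, the kind of value a failed estimate gives, and was left untested. Among genes called in either direction, 565 were listed at 0 in at least 1 of the 5 libraries. Gpx3 and Spp1 had opposite places relative to the p53WT libraries with no suffix. Gpx3 had 3753, 3417 and 3020 FPKM there, above both activated groups, whereas Spp1 was lowest there, with 20.2, 20.8 and 23.0.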
